A study of Mus musculus with 4 samples.

Results

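The Polycomb genes and a set of other genes that write, erase or read histone marks were followed across fibroblasts and pluripotent stem cells of the mouse. The list held 46 genes chosen by name, with earlier results of these data known, 27 of Polycomb complexes and 19 other histone modifying genes. Of these 45 were measured, 40 by 1 probe set and 5 by several that were averaged, out of 19938 genes in all; Suv39h1 had no probe set assigned to it alone and was not analysed here. Total RNA was hybridised to Affymetrix arrays, 1 array for each of 4 samples. The samples were fibroblasts from mouse embryos (MEF), 2 lines of induced pluripotent stem cells named iPS 178B5 and iPS 492B4, and the embryonic stem cell line ES v6.5. MEF and both iPS lines shared a mixed background of DBA/2, C57BL/6 and 129S4. The ES cells were F1 cells of 129 and C57BL/6; strain and the ES group therefore cannot be told apart. MEF grew in serum medium. The 3 pluripotent lines grew in ES cell medium, also with serum, on SNL feeder cells. Culture and cell type therefore cannot be told apart in the comparison with MEF. The feeder cells had been treated with mitomycin-C and carried a puromycin-resistance gene. No treatment, genetic change or passage number beyond this was given for the samples, and the labels do not say how the iPS lines were made.

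Polycomb proteins keep genes silent without changing the DNA. Polycomb repressive complex 2 (PRC2) adds methyl groups to lysine 27 of histone H3 (H3K27), and Polycomb repressive complex 1 (PRC1) adds ubiquitin to histone H2A and compacts chromatin; in ES cells both sit on the promoters of developmental genes, most of which lie in CpG islands. PRC1 comes in a canonical form, whose CBX subunit binds the H3K27 mark, and in variant forms that reach chromatin without it. Most subunits are encoded by small families of paralogues, of which a complex takes 1 at a time.

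All values below are the deposited log values, taken as log2, in which every probe set had been centred on its median over the 4 arrays. A value of 0 is therefore the middle of the arrays and not absence of expression, and values compare arrays for a gene but never genes with each other. The change of a gene is the mean of the 3 lines minus MEF, with the standard deviation (SD) over the lines. It was tested with limma across all 19938 genes and called at a Benjamini-Hochberg adjusted p under 0.05 and at least 1 log2, a difference of 2-fold. The spread in that test comes from the 3 lines, and MEF, with a single array, was taken to vary as they do. The labels name no repeat cultures, and the p-values therefore measure only the spread between these arrays. In bulk RNA of this kind, fewer cells of a type and less RNA per cell cannot be told apart.

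Pluripotent and fibroblast markers went with the labels. All 10 pluripotent markers were called higher in the lines, with medians of 6.00, 6.08 and 6.08 log2 above MEF in iPS 178B5, iPS 492B4 and ES. All 12 fibroblast markers were lower in every line and 8 were called (2 without iPS 178B5 and 6 without iPS 492B4). Their mean distance from MEF was -4.77 log2 in iPS 178B5 and -5.07 log2 in iPS 492B4 but -2.90 log2 in ES. Primitive endoderm markers had medians of 1.45, 0.77 and -0.68 log2 from MEF in iPS 178B5, iPS 492B4 and ES; 0 of 10 were called higher and 1 lower, and with the ES line left out 4 were called higher and 1 lower. Proliferation genes were called higher in 14 of 19 cases (7 without iPS 178B5), with medians of 1.49, 1.68 and 1.43 log2 in the same order of lines.

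Of the 45 measured members 18 were called higher in the pluripotent lines and 2 lower, while 7.90% of all genes were called higher and 9.71% lower. As a share, 40.0% of the members rose and 4.44% fell; because the list was chosen with earlier results known, this share was not tested against that of all genes. The median change of the members was 0.82 log2, against -0.10 log2 over all genes. In 42 of the 45 members all 3 lines lay on one side of MEF, as they did for 77.8% of all genes; the lines were above MEF for 32 members (30.1% of all genes) and below it for 10 (47.7% of all genes). The largest rises were Cbx7, Phc1, Jarid2, Mtf2, Pcgf6 and L3mbtl2, all Polycomb genes, each over 2 log2 in every line. Without iPS 178B5 11 members were called higher and 0 lower, and of all genes 613 higher and 744 lower. When the arrays were centred on the median of 12 reference genes, of which 2 were themselves called higher and 2 lower, which moved the median of all genes to -0.35 log2, 15 members were called higher and 6 lower, and over all genes 1179 and 2797 in place of 1576 and 1936. Proliferation genes, whose values stand above, were higher in the same arrays, and their part in the rises was not tested.

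**Figure D1:**
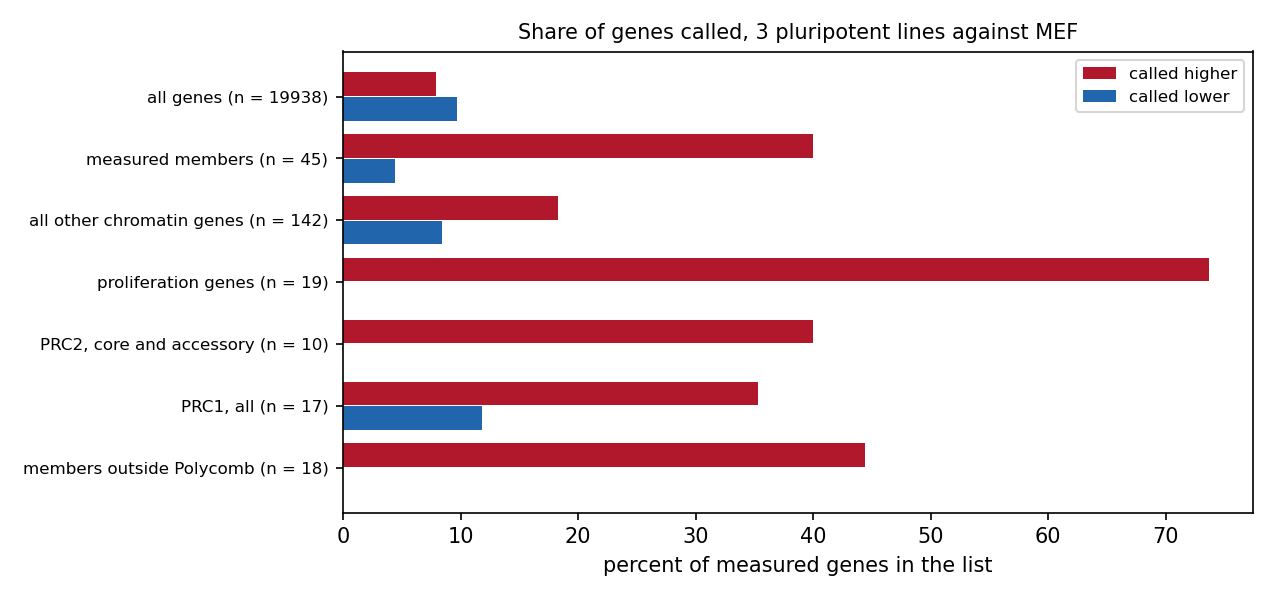
Percent of measured genes called higher (red) or lower (blue) in the 3 pluripotent lines against MEF, for all genes and for named lists; n is the number of measured genes. The measured members stand at 40.0% higher and 4.44% lower, beside 7.90% and 9.71% of all genes.

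Of the 6 genes of the PRC2 core, Ezh2 and Suz12 rose in pluripotent cells, and 4 were not called; without iPS 178B5 Ezh2 alone was called, and 7.90% of all genes were called higher with the 3 lines. By values averaged over probe sets, all 6 lay above MEF in every line, as did 30.1% of all genes. Ezh2 encodes the methyltransferase that predominates in dividing cells. Its value was -1.50 on MEF, -0.06 on iPS 178B5, 0.09 on iPS 492B4 and 0.06 on ES, so the lines lay close together and well above MEF. Ezh2 rose by 1.53 ± 0.08 log2 (SD, n = 3 lines; limma adjusted p = 0.0076). Suz12, a scaffold that holds the complex together, stood at -2.01 on MEF, 0.36 on iPS 178B5, 0.59 on iPS 492B4 and -0.36 on ES. Suz12 rose by 2.20 ± 0.50 log2 (limma adjusted p = 0.0262), with the ES line the nearest to MEF. Its call was lost when iPS 178B5 was left out (2.12 log2, adjusted p = 0.0839).

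The remaining core genes were not called. Ezh1, the paralogue of Ezh2 known from resting and differentiated cells, read -0.88 on MEF, 0.46 on iPS 178B5, 1.14 on iPS 492B4 and -0.46 on ES. The lines spread over more than the distance of the ES line from MEF, and the mean of 1.26 ± 0.80 log2 had an adjusted p of 0.236 in limma, which became 0.026 (1.68 log2) when the ES line was left out. Eed, which binds methylated H3K27 and stimulates the enzyme, stood at 0.92 ± 0.25 log2 (limma adjusted p = 0.0584). Its 2 probe sets disagreed, at 0.05 and 1.78 log2, so the averaged value describes neither. The former read 0.03 on MEF, -0.10 on iPS 178B5, -0.03 on iPS 492B4 and 0.35 on ES, with both iPS lines below MEF. The histone chaperones Rbbp4 and Rbbp7, shared with other complexes, stood at 0.45 ± 0.09 and 0.46 ± 0.13 log2.

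Among the accessory subunits, which steer PRC2 to its targets, Jarid2 and Mtf2 rose and Phf1 and Phf19 were not called. Jarid2, which binds nucleosomes and RNA, read -2.97 on MEF, -0.03 on iPS 178B5, 0.03 on iPS 492B4 and 0.20 on ES. The 3 lines lay within 0.23 log2 of each other, and Jarid2 rose by 3.04 ± 0.12 log2, or 8.22-fold (limma adjusted p = 0.00495). Mtf2, a Polycomb-like protein that binds CpG-rich DNA, read -2.61 on MEF, 0.11 on iPS 178B5, -0.11 on iPS 492B4 and 0.20 on ES, a rise of 2.68 ± 0.16 log2 (limma adjusted p = 0.00548). Its paralogue Phf19 stood at 0.67 ± 0.24 log2 (limma adjusted p = 0.112). The other paralogue, Phf1, lay below MEF in every line, at -0.78 log2 (SD 0.22, limma adjusted p = 0.0721). With reference gene centring Phf1 was called lower (-1.03 log2, limma adjusted p = 0.0251). The ratio of Mtf2 to Phf1 shifted toward Mtf2 by 3.68, 3.03 and 3.65 log2 in iPS 178B5, iPS 492B4 and ES relative to MEF. Adding a constant to all values of an array, as reference gene centring does, cannot change this shift, which was not tested.

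**Figure D2:**
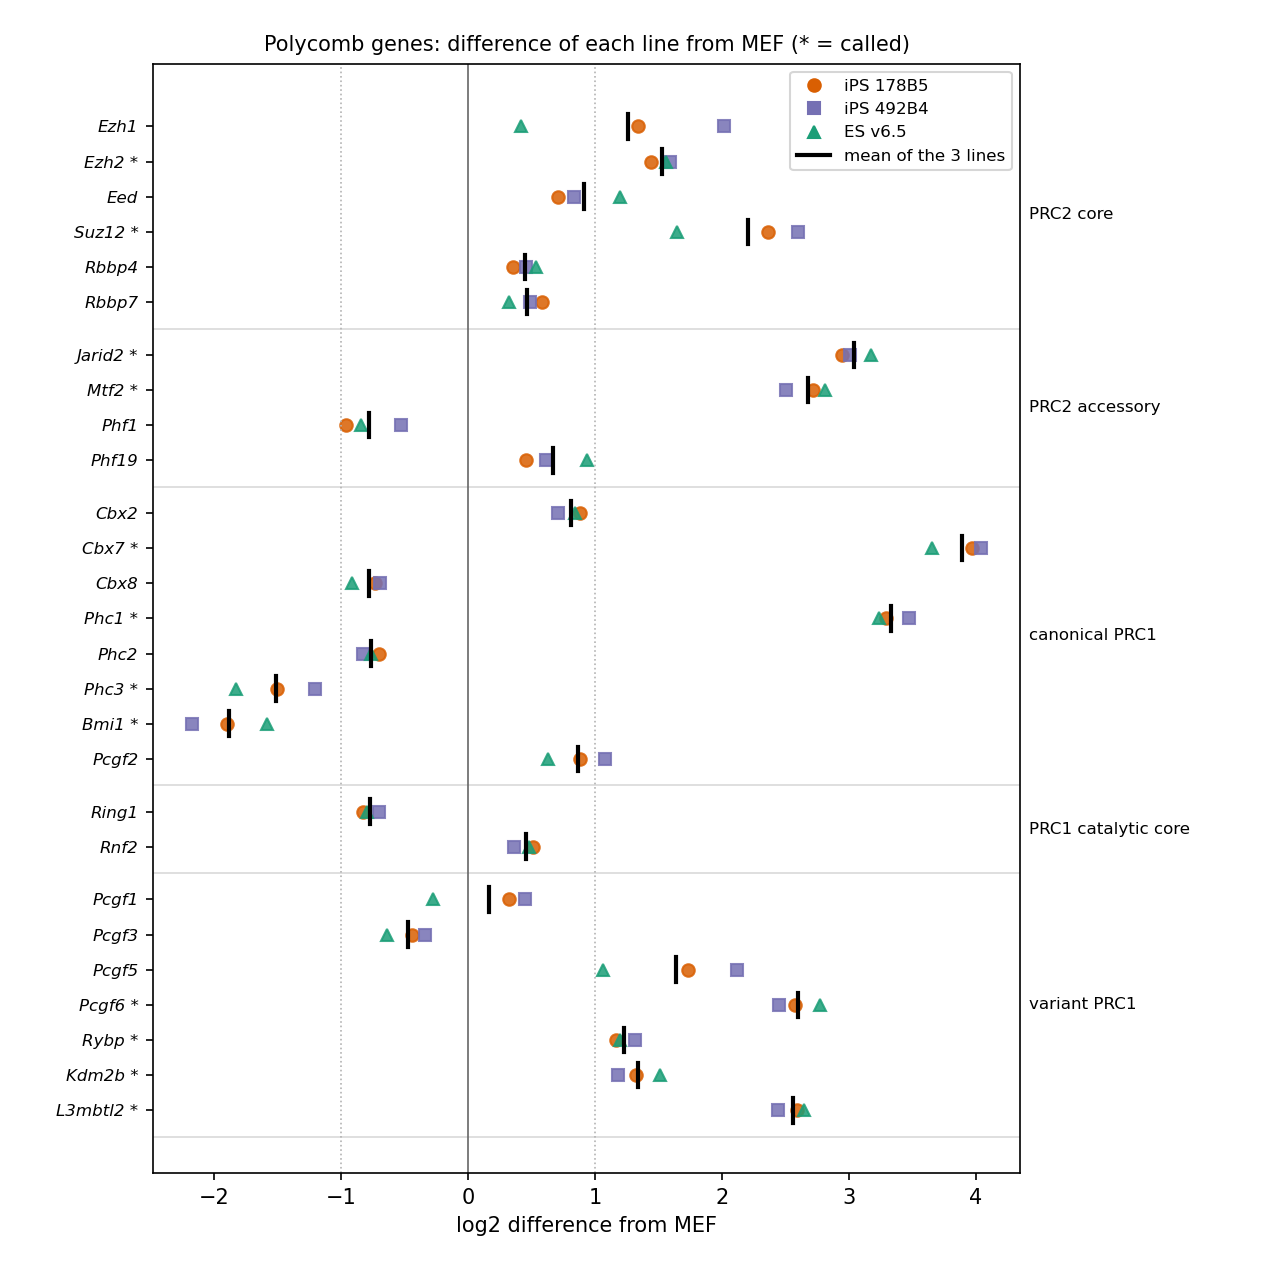
Log2 difference from MEF (horizontal axis) of iPS 178B5 (circles), iPS 492B4 (squares) and ES (triangles) for each Polycomb gene, grouped by complex, with the mean of the 3 lines as a black bar; dotted lines mark 1 log2 and an asterisk a called gene. Cbx7 and Phc1 lie farthest to the right, at 3.89 and 3.33 log2, and Bmi1 and Phc3 farthest to the left, at -1.88 and -1.51 log2.

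Canonical PRC1 held both the largest rises and the only called falls of the list. Of its 8 genes with a CBX, PHC or PCGF subunit, 2 rose, 2 fell and 4 were not called, beside 7.90% higher and 9.71% lower among all genes, with a median of 0.03 log2. The upstream DNA of the 4 called genes, chosen after their values were seen, is shown because their directions opposed each other within the same complex. Each sequence is the 250 bases before the RefSeq start site (GRCm38.p6), written 5′ to 3′ on the strand of the gene, with every CpG dinucleotide in capitals. Phc1 is at chr6:122340228-122340477 on the minus strand, Phc3 at chr3:30969416-30969665 on the minus strand, Cbx7 at chr15:79932647-79932896 on the minus strand and Bmi1 at chr2:18676768-18677017 on the plus strand.
Phc1: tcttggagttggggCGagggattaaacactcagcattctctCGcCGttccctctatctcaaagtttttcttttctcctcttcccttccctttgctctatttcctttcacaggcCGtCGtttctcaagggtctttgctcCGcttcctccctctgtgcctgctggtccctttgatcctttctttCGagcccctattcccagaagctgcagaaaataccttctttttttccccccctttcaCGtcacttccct
Phc3: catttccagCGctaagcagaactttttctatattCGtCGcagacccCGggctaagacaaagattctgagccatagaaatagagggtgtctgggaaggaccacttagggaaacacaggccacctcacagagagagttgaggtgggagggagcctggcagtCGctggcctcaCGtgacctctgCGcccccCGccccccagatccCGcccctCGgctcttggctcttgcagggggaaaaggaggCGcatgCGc
Cbx7: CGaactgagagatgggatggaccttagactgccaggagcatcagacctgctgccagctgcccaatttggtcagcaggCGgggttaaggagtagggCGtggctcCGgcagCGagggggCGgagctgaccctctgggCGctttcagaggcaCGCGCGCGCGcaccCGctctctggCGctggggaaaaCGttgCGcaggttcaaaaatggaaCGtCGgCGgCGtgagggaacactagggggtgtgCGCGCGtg
Bmi1: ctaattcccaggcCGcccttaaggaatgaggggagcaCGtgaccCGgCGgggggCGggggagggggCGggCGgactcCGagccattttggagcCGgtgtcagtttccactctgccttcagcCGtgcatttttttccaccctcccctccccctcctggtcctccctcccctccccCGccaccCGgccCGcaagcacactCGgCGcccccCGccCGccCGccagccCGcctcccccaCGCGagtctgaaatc
Phc1 held 8 CpG dinucleotides and Phc3 12, while Cbx7 held 23 and Bmi1 21. Over 32851 such windows in the table the median was 6, and 33.5% of them held at least 12. The 48 windows of the 37 measured members in the table had a median of 21.5, and 42 of the 48 held at least 12. The forms TTTCGCGC and TTTGGCGC of the E2F motif were searched on both strands, and other forms were not. Either was in the upstream window of 0 of 38 listed members with a window, measured or not. It was in that of 0.759% of all genes in the table, too rare for 0 of 38 to set members apart.

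Cbx7 encodes the CBX subunit found in most canonical PRC1 of ES cells, and it carries the chromodomain that binds H3K27 methylation. Its value was -3.81 on MEF, 0.16 on iPS 178B5, 0.22 on iPS 492B4 and -0.16 on ES. All 3 lines were far from MEF and within 0.38 log2 of each other. The rise of 3.89 ± 0.20 log2, or 14.8-fold, was the largest in the list (limma adjusted p = 0.00495). Cbx2, known for compacting chromatin, stood at 0.81 ± 0.09 log2, with an adjusted p of 0.0258 in limma but under the minimum of 1 log2. Cbx8, associated with differentiated cells, lay below MEF in every line at -0.78 log2 (SD 0.12, limma adjusted p = 0.0345), also under the minimum. With reference gene centring Cbx8 was called lower (-1.03 log2, limma adjusted p = 0.0136). Relative to MEF the ratio of Cbx7 to Cbx8 shifted by 4.66 ± 0.08 log2 toward Cbx7 (n = 3 lines, not tested); centred values do not show which of them is the more abundant on any array.

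The polyhomeotic subunits, which polymerise through a SAM domain, split in the same manner. Phc1 read -3.26 on MEF, 0.03 on iPS 178B5, 0.21 on iPS 492B4 and -0.03 on ES, and rose by 3.33 ± 0.13 log2 (limma adjusted p = 0.00493). Phc3 read 1.35 on MEF, -0.15 on iPS 178B5, 0.15 on iPS 492B4 and -0.48 on ES, with MEF above all lines. Phc3 fell by 1.51 log2 (SD 0.31, limma adjusted p = 0.0258), and its 2 probe sets moved alike, at -1.74 and -1.28 log2. Without iPS 178B5 Phc3 was not called (adjusted p = 0.0899). Phc2, the third paralogue, stood at -0.76 log2 (SD 0.06, limma adjusted p = 0.0263), under the minimum of 1 log2, and was called lower with reference gene centring (-1.01 log2, adjusted p = 0.0137). Relative to MEF the ratio of Phc1 to Phc3 shifted by 4.84 ± 0.20 log2 toward Phc1, and that of Phc1 to Phc2 by 4.09 ± 0.18 log2 (not tested).

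Bmi1 and Pcgf2 (also known as Mel18) encode the alternative PCGF subunits of canonical PRC1; Bmi1 is known for repressing the Cdkn2a cell cycle inhibitor locus. Bmi1 read 1.74 on MEF, -0.15 on iPS 178B5, -0.43 on iPS 492B4 and 0.15 on ES. It fell by 1.88 log2 (SD 0.29, limma adjusted p = 0.0144). All lines lay below the single MEF array, as they did for 47.7% of all genes. Without iPS 178B5 the fall was the same size (-1.88 log2) and was not called (adjusted p = 0.0622). Pcgf2 lay above MEF in every line, at 0.87 ± 0.23 log2 (limma adjusted p = 0.0565), and was not called. The ratio of Pcgf2 to Bmi1 shifted by 2.78 log2 in iPS 178B5, 3.25 log2 in iPS 492B4 and 2.22 log2 in ES, toward Pcgf2.

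The ubiquitin ligases at the centre of all PRC1 forms, Ring1 and Rnf2 (also known as Ring1b), were not called. Ring1 lay below MEF, at -0.77 log2 (SD 0.06, limma adjusted p = 0.0254), under the fold minimum, and was called lower with reference gene centring (-1.02 log2, adjusted p = 0.0116). Rnf2, the main ligase of ES cells, lay above MEF at 0.45 ± 0.08 log2 (limma adjusted p = 0.096). Relative to MEF the ratio of Rnf2 to Ring1 shifted toward Rnf2 by 1.34, 1.07 and 1.28 log2 in iPS 178B5, iPS 492B4 and ES (not tested).

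**Figure D3:**
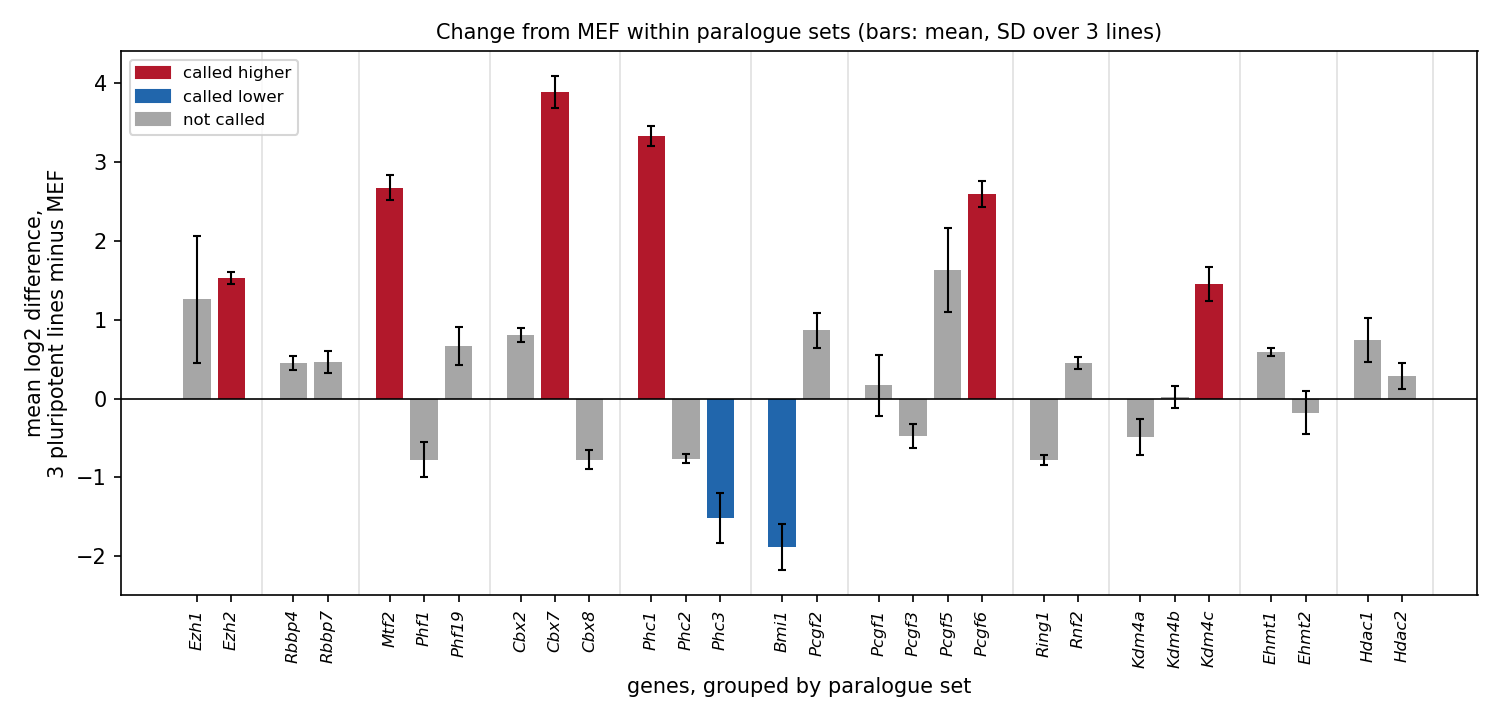
Mean log2 difference between the 3 pluripotent lines and MEF for each gene of 11 paralogue sets, with the SD over the lines as error bars; red bars were called higher, blue lower and grey were not called. In the PHC set Phc1 stands at 3.33 log2 and Phc3 at -1.51 log2, and in the CBX set Cbx7 at 3.89 log2 and Cbx8 at -0.78 log2.

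In the variant PRC1 set 4 of 7 genes rose and 0 fell (2 rose without iPS 178B5), beside 7.90% and 9.71% of all genes, with a median of 1.34 log2. Pcgf6, the subunit of a form that silences germ cell genes, read -2.51 on MEF, 0.06 on iPS 178B5, -0.06 on iPS 492B4 and 0.26 on ES. Pcgf6 rose by 2.60 ± 0.16 log2 (limma adjusted p = 0.00548). L3mbtl2, a partner of Pcgf6 in that form, read -2.52 on MEF, 0.07 on iPS 178B5, -0.07 on iPS 492B4 and 0.13 on ES. Its rise of 2.56 ± 0.10 log2 (limma adjusted p = 0.00548) was close to that of Pcgf6. E2f6, a DNA-binding partner in the same form, fell by 1.24 log2 (limma adjusted p = 0.0135), a call lost on leaving out iPS 178B5 (-1.31 log2, adjusted p = 0.0553). Mga, another DNA-binding partner in that form, was called higher at 1.07 log2. Its call was lost on leaving out iPS 178B5 and with reference gene centring.

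Kdm2b brings the Pcgf1 form to unmethylated CpG islands through its zinc finger. It rose by 1.34 ± 0.17 log2 (limma adjusted p = 0.0142). Without iPS 178B5 the rise was the same size (1.34 log2) and was not called (limma adjusted p = 0.0691). Pcgf1 itself lay above MEF in the iPS lines, at 0.33 and 0.45 log2, and below it in ES, at -0.27 log2. Its mean of 0.17 ± 0.39 log2 was not called (limma adjusted p = 0.751) and was -0.081 log2 with reference gene centring. Rybp, an adaptor of all variant forms, rose by 1.23 ± 0.08 log2 (limma adjusted p = 0.0109), with its 2 probe sets at 1.43 and 1.02 log2. On leaving out iPS 178B5 its adjusted p was 0.0609, and it stood at 0.98 log2 with reference gene centring. Pcgf5 lay above MEF by 1.73, 2.12 and 1.06 log2 in iPS 178B5, iPS 492B4 and ES, and its mean of 1.64 ± 0.53 log2 had an adjusted p of 0.0626 in limma; without the ES line it was called (1.92 log2, adjusted p = 0.00804). Pcgf3, which like Pcgf5 acts in a form known from X inactivation, stood at -0.47 log2 (SD 0.15, limma adjusted p = 0.136).

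Outside Polycomb 8 of 18 measured members rose and 0 fell (7.90% and 9.71% of all genes), with a median of 0.78 log2. The largest rise was that of Suv39h2, at 1.83 log2. Without iPS 178B5 4 of the 8 were called, namely Suv39h2, Wdr5, Kdm4c and Kdm5b.

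**Figure D4:**
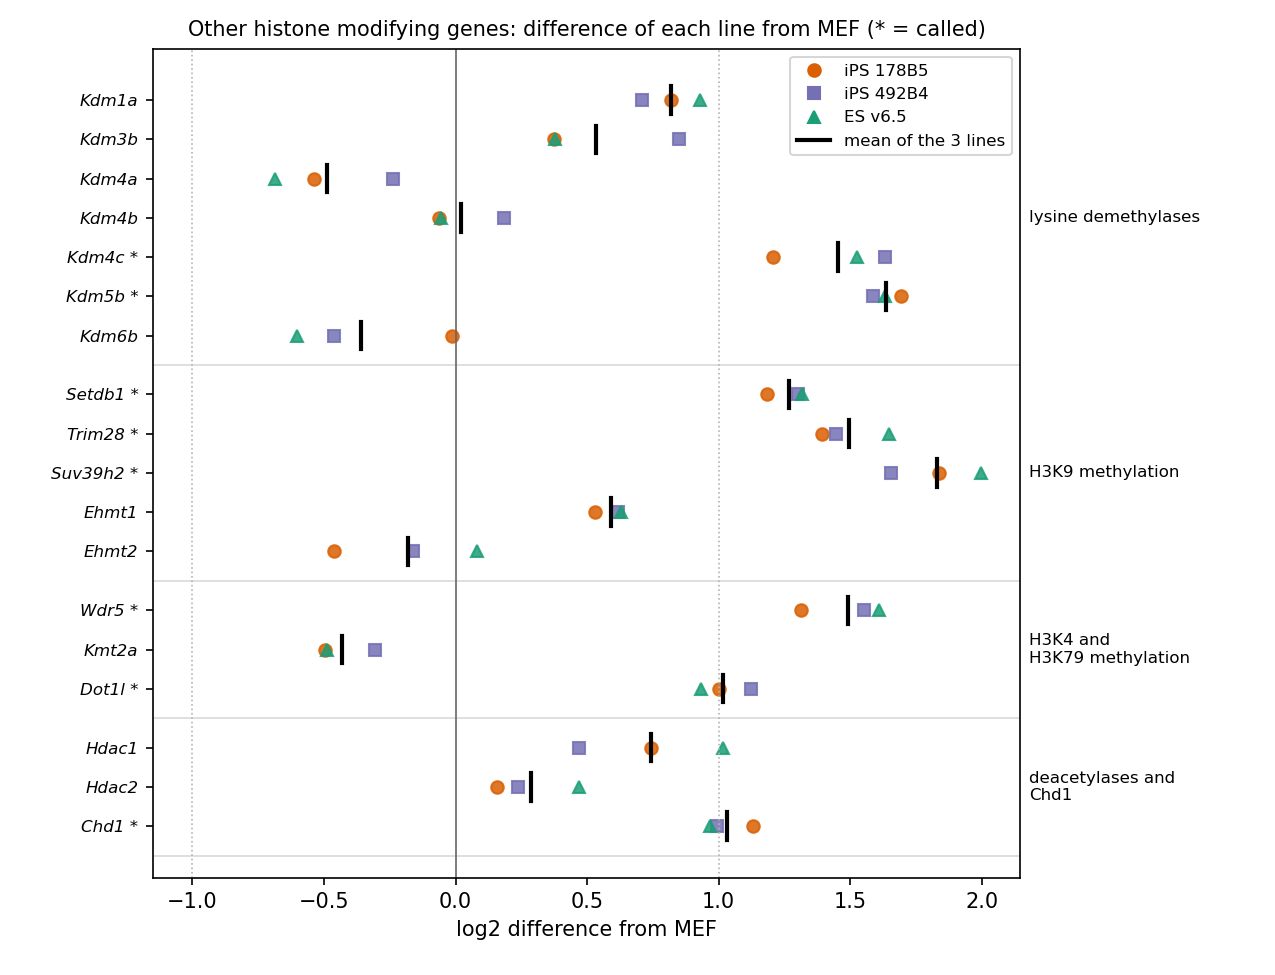
Log2 difference from MEF (horizontal axis) of iPS 178B5 (circles), iPS 492B4 (squares) and ES (triangles) for the measured members outside Polycomb, grouped by activity, with the mean of the 3 lines as a black bar; dotted lines mark 1 log2 and an asterisk a called gene. Suv39h2 stands farthest to the right at 1.83 log2, and Kdm4a farthest to the left at -0.49 log2.

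The genes of H3K9 methylation, a mark of heterochromatin and of silenced retroviral elements, had 3 of 5 measured members called higher and 0 lower (1 higher without iPS 178B5), beside 7.90% and 9.71% of all genes. Suv39h2, a methyltransferase of pericentric heterochromatin, read -1.75 on MEF, 0.09 on iPS 178B5, -0.09 on iPS 492B4 and 0.25 on ES. The lines were 1.84, 1.65 and 2.00 log2 above MEF, and Suv39h2 rose by 1.83 ± 0.17 log2 (limma adjusted p = 0.00846). Trim28, the co-repressor that zinc finger proteins recruit, read -1.42 on MEF, -0.03 on iPS 178B5, 0.03 on iPS 492B4 and 0.23 on ES. Setdb1, the methyltransferase that works with Trim28, read -1.24 on MEF, -0.06 on iPS 178B5, 0.06 on iPS 492B4 and 0.08 on ES. Both lay above the single MEF array in all 3 lines, as did 30.1% of all genes. They rose by 1.49 ± 0.13 and 1.27 ± 0.07 log2 (limma adjusted p = 0.00972 and 0.00994). Without iPS 178B5 neither was called (adjusted p = 0.0501 and 0.0552). Of the euchromatic H3K9 methyltransferases, Ehmt1 stood at 0.59 ± 0.05 log2, under the minimum (limma adjusted p = 0.0461), and Ehmt2, also known as G9a, at -0.18 log2 (SD 0.27, limma adjusted p = 0.648). Ehmt2 was below MEF in the iPS lines, at -0.46 and -0.16 log2, and above it in ES, at 0.08 log2.

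Of 7 lysine demethylases 2 rose and 0 fell, beside 7.90% and 9.71% of all genes, and these 2 were also called without any single line. Kdm5b, which removes methyl groups from H3K4, read -1.61 on MEF, 0.08 on iPS 178B5, -0.02 on iPS 492B4 and 0.02 on ES. It rose by 1.64 ± 0.05 log2 (limma adjusted p = 0.00635), the smallest SD among the called members. Kdm4c, a demethylase of H3K9, read -1.37 on MEF, -0.16 on iPS 178B5, 0.26 on iPS 492B4 and 0.16 on ES, and rose by 1.45 ± 0.22 log2 (limma adjusted p = 0.0164). Its paralogues were not called: Kdm4a stood at -0.49 log2 (SD 0.23) and Kdm4b at 0.02 ± 0.14 log2, the latter turning to -0.23 log2 with reference gene centring and to -0.058 log2 without iPS 492B4. The ratio of Kdm4c to Kdm4a shifted toward Kdm4c by 1.74, 1.87 and 2.21 log2 in iPS 178B5, iPS 492B4 and ES.

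Kdm1a (also known as Lsd1), an eraser of H3K4 methylation, stood at 0.82 ± 0.11 log2 with an adjusted p of 0.0287 in limma, under the fold minimum. Kdm3b, which acts on H3K9, lay above MEF by 0.37 log2 in iPS 178B5, 0.85 log2 in iPS 492B4 and 0.38 log2 in ES. Kdm6b, an eraser of the H3K27 mark that PRC2 writes, lay at -0.02, -0.46 and -0.60 log2 in the same order, and its mean of -0.36 log2 was not called (SD 0.31, limma adjusted p = 0.405). Its relative Kdm6a was called higher, at 1.39 ± 0.10 log2, though not without iPS 178B5 (1.34 log2, adjusted p = 0.0546).

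Among genes of active chromatin, Wdr5, a subunit shared by the H3K4 methyltransferase complexes, read -1.43 on MEF, -0.12 on iPS 178B5, 0.12 on iPS 492B4 and 0.17 on ES. Wdr5 rose by 1.49 ± 0.16 log2 (limma adjusted p = 0.0111). Ash2l, which belongs to the same core, also rose, by 1.94 ± 0.07 log2 (limma adjusted p = 0.00574). Kmt2a (also known as Mll1), an enzyme of such complexes, stood at -0.43 log2 (SD 0.11, limma adjusted p = 0.127). Dot1l, which methylates lysine 79 of histone H3, and Chd1, a remodeller that reads H3K4 methylation, lay just above the fold minimum at 1.02 ± 0.10 and 1.03 ± 0.09 log2 (limma adjusted p = 0.0164 and 0.0154). Without iPS 178B5 neither was called (adjusted p = 0.0861 and 0.0827), without iPS 492B4 Dot1l stood at 0.97 log2, and with reference gene centring they stood at 0.77 and 0.78 log2. The deacetylases Hdac1 and Hdac2, catalytic subunits of several co-repressor complexes, stood at 0.74 ± 0.27 and 0.29 ± 0.16 log2 and were not called (limma adjusted p = 0.108 and 0.326).

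Beyond the list, 142 of 149 other chromatin genes were measured, of which 26 were called higher (18.3%) and 12 lower (8.45%), beside 7.90% and 9.71% of all genes. Of 32 other Polycomb subunits and partners 4 rose and 3 fell, and without iPS 178B5 1 and 0. Sfmbt2, a Polycomb-related MBT protein, rose by 2.79 ± 0.17 log2 (limma adjusted p = 0.00548). Epop, a PRC2 partner, rose by 1.78 ± 0.52 log2 (limma adjusted p = 0.0486), a call lost on leaving out iPS 178B5 (0.124), with reference gene centring (0.0537) or with robust variances (0.0503). The deubiquitinase Usp7 (1.40 log2) and Fbrs (-1.08 log2) were called, though not on leaving out iPS 178B5 (adjusted p = 0.0849 and 0.0886). Bcorl1, a co-repressor called lower just past the fold minimum, had an adjusted p of 0.0754 there, and stood at -0.97 log2 in the absence of iPS 492B4, at -0.99 log2 in that of ES and at -0.93 log2 with equal array medians.

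The counts in the lists below stand beside 7.90% of all genes called higher and 9.71% lower. Both shares were smaller without iPS 178B5, at the counts given above. Acetyltransferase genes had 6 of 21 higher and 0 lower, led by Hat1 (2.35 log2), which acetylates new histone H4, Ncoa3 (2.14 log2) and Ing5 (1.63 log2). Without iPS 178B5 2 were higher and Ing5 was not called (limma adjusted p = 0.0712). Other deacetylase and co-repressor genes had 4 of 29 higher and 4 lower (3 and 4 without iPS 178B5). Rcor2, a partner of Kdm1a, rose by 2.98 log2, Hdac6, a deacetylase of tubulin, by 2.19 log2 and Sirt1 by 1.77 log2, while Chd3, a remodeller of the NuRD complex, fell by 2.39 log2, Hdac7 by 2.24 log2 and Rcor3, a paralogue of Rcor2, by 2.05 log2. Other lysine methyltransferases and their subunits had 6 of 33 higher and 3 lower (1 of each in the absence of iPS 178B5; 6 and 1 in that of iPS 492B4). Kmt5c (1.83 log2), Prdm14 (1.72 log2), Mecom (-2.54 log2) and Smyd2 (-1.01 log2) lost their calls when iPS 178B5 was left out (adjusted p = 0.0641, 0.0515, 0.061 and 0.105). Kmt2e (-1.46 log2) was not called without iPS 492B4 (adjusted p = 0.0503), and Smyd2 was under the minimum there (-0.92 log2) and with equal array medians (-0.93 log2). Other lysine demethylases had 4 of 17 higher and 1 lower (0 and 1 in the absence of iPS 178B5; 2 and 1 in that of iPS 492B4). Phf2 fell by 1.81 log2, and Riox2 (1.49 log2) and Jmjd1c (1.12 log2) lost their calls when iPS 178B5 was left out (adjusted p = 0.0692 and 0.064), nor Riox2 without iPS 492B4 (0.0532), and Jmjd1c stood at 0.87 log2 with reference gene centring. Of 10 arginine methyltransferase genes 2 were higher, Prmt7 (1.70 log2) and Prmt5 (1.43 log2), and 1 was lower, Prmt2 (-1.17 log2), not called without iPS 178B5 (adjusted p = 0.0621).

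The comparison of the iPS lines with the ES line asked whether reprogrammed and embryo-derived cells carried the same levels of these genes. In limma's fit with MEF, iPS and ES as groups, 0 of 45 members and 0% of 19938 genes were called. The spread in that fit comes from the iPS lines alone, with 1 residual degree of freedom. Even the fibroblast marker Postn, at -3.47 log2 for iPS minus ES, was not called. The absence of calls therefore does not mean equal levels. At an unadjusted p under 0.05, 5 of 45 members passed, as did 15.4% of all genes (3079). With robust variances, and with the iPS and ES arrays alone, 0 members and 0 genes were called. With equal array medians 44 genes were called and with reference gene centring 179, of which 0 were members in either case. Both iPS lines lay on one side of ES for 33 of 45 members and for 78.8% of all genes; they were above ES for 15 members (31.0% of all genes) and below it for 18 (47.7% of all genes).

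The 5 members at an unadjusted p under 0.05 were Ezh1, Pcgf5, Suz12 and Pcgf1, all higher in the iPS lines, and Eed, which was lower. Relative to ES, Ezh1 stood at 0.93 log2 in iPS 178B5 and at 1.60 log2 in iPS 492B4, the widest distance of all measured members (mean 1.26 ± 0.32 log2, SE of the fit; limma adjusted p = 0.241). Pcgf5 stood at 0.67 and 1.05 log2 (limma adjusted p = 0.24), Suz12 0.72 and 0.95 log2 (0.195) and Pcgf1 0.60 and 0.72 log2 (0.214). Eed was -0.49 and -0.36 log2 from ES (limma adjusted p = 0.318). For Ezh1, Pcgf5 and Suz12 the ES value thus lay between MEF and the iPS lines. The fibroblast markers, which are also markers of the SNL feeder layer, likewise lay between MEF and the iPS lines on the ES array. Their means are given above, and 11 of the 12 were below ES in both iPS lines. All 10 primitive endoderm markers were above ES in both iPS lines, with a median of 1.81 log2 for iPS minus ES. The part of feeder cells or of either cell type in these differences was not tested.

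**Figure D5:**
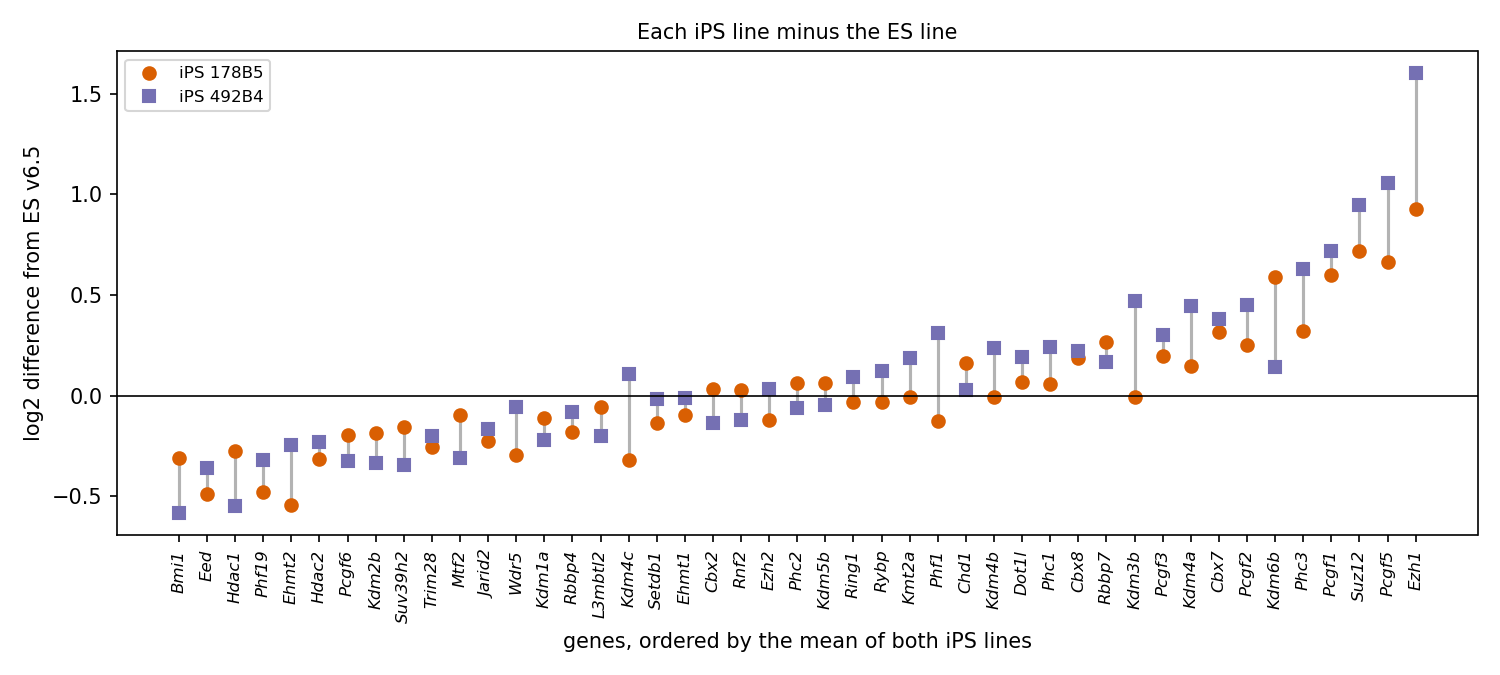
Log2 difference from the ES line (vertical axis) of iPS 178B5 (circles) and iPS 492B4 (squares) for the 45 measured members, ordered by the mean of both lines; grey bars join the lines. Ezh1 stands highest, at 0.93 and 1.60 log2, and Bmi1 lowest, at -0.31 and -0.58 log2.

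The genes with the largest rises were picked for their distance from MEF. That their distance between iPS and ES was smaller than the rises is therefore partly set by that choice. Over all genes the median absolute difference of the iPS mean from ES was 0.19 log2. Relative to ES, the mean of the iPS lines was 0.35 log2 for Cbx7, 0.15 log2 for Phc1, -0.20 log2 for Jarid2, -0.20 log2 for Mtf2, -0.26 log2 for Pcgf6 and -0.13 log2 for L3mbtl2, with standard errors of 0.14 to 0.17 log2. All 5 measured genes of H3K9 methylation were lower in both iPS lines than in ES, as were 47.7% of all genes. Their means ran from -0.05 log2 for Ehmt1 to -0.39 log2 for Ehmt2, and 0 were called. In iPS 492B4 the distance from ES was only -0.01 log2 for Ehmt1 and -0.02 log2 for Setdb1. The shared sign was not tested. Between the iPS lines, which were compared by value only, 1 of 45 members differed by at least 0.5 log2 and 0 by at least 1 log2, against 6.96% and 0.612% of all genes. The former was Ezh1, 0.67 log2 higher in iPS 492B4. The root mean square difference over the 45 members was 0.24 log2 between the iPS lines, 0.32 log2 between iPS 178B5 and ES and 0.43 log2 between iPS 492B4 and ES. Over all genes these differences were 0.28, 0.40 and 0.49 log2, in the same order. From MEF the difference over the members was 1.50 log2 for iPS 178B5, 1.54 log2 for iPS 492B4 and 1.50 log2 for ES. Over all genes it was 1.05, 1.12 and 0.98 log2.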

How the data were processed

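The authors deposited 1 table of log2 values for 28853 probe sets and 4 arrays. The submitters' processing notes name GCRMA, which corrects background, normalizes arrays and summarises probes; its version and the log base are not given in the sources used here, and base 2 was assumed. All 28853 probe sets had a median over the arrays of 0 within 1e-06, so the table carries no level that could be set against background, and a filter on dim probe sets was not possible. The platform annotation supplied gene symbols: 21789 had 1 gene symbol and were averaged per gene, and 1621 with several and 5443 with none were left out. Upstream sequences are from RefSeq. Fits used limma 3.58.1 in R 4.3.3, tested on simulated data: MEF against 3 lines (2 residual degrees of freedom) and MEF, iPS and ES as groups (1). Calls needed an adjusted p under 0.05 and 1 log2. Members, complexes and lists were chosen with earlier results of these data known. Named genes were all measured members, up to 3 called genes per direction of each other list, and Mga. Alternatives were leaving out each line, 2 other scalings, genes with 1 probe set, robust variances, no fold minimum and the 3-group fit. Protein sequences were not used here. The number of arrays limits the precision.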

Additional observations from a re-analysis of the deposited data

Results flagged for a closer look

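For 2 members both iPS lines lay on one side of MEF and the ES line on the other. Pcgf1 was above MEF in the iPS lines and below it in ES, and iPS minus ES was 0.66 log2 (limma adjusted p = 0.214). Ehmt2 was below MEF in the iPS lines and above it in ES, and iPS minus ES was -0.39 log2 (limma adjusted p = 0.412). Neither difference passed the test, and their distances from MEF were small, from -0.27 to 0.45 log2 for Pcgf1 and from -0.46 to 0.08 log2 for Ehmt2.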

How the results depend on the processing

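Leaving out 1 pluripotent line gave 1357 to 4216 genes called against MEF, 613 to 1981 of them higher and 744 to 2235 lower, and 11 to 22 members, 11 to 20 higher and 0 to 2 lower; the lowest values are those without iPS 178B5. Of the 18 members called higher, 11 were called in every fit of the 3 lines or of 2 of them in which they had a value, under each scaling and with robust variances (Ezh2, Jarid2, Mtf2, Cbx7, Phc1, Pcgf6, L3mbtl2, Kdm4c, Kdm5b, Suv39h2 and Wdr5). The number of members called lower was 6 with reference gene centring, 5 with no fold minimum and 1 over genes with 1 probe set, where Phc3 has no value. The members' median was 0.89 log2 with equal array medians and 0.57 log2 with reference gene centring. For iPS minus ES, 44 genes were called with equal array medians and 179 with reference gene centring. Signs turned for members near 0 that were not called: Pcgf1 stood at -0.081 log2 with reference gene centring and at -0.27 log2 for ES minus MEF. Kdm4b ranged from -0.058 to 0.063 log2 over fits that left out 1 line, the lowest being that without iPS 492B4, and stood at -0.23 log2 with reference gene centring and -0.056 log2 for ES minus MEF, and Ehmt2 at 0.082 log2 for ES minus MEF. In iPS minus ES, Phc2 turned to 0.041 log2 with equal array medians, and Ring1 and Kdm5b to -0.013 and -0.033 log2 with reference gene centring. The cause of these changes was not tested. Leaving out the ES line gave the same values as iPS minus MEF in the 3-group fit. No paired analysis was possible because MEF and each line had 1 array and formed no pairs.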
